A study of Homo sapiens with 4 samples.

Results

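The loops described here are the chromatin loops of MDA-MB-231 cells found with vehicle in both libraries and with THZ1 in none. They are the loops of the list of vehicle replicate 1 with a match in the list of vehicle replicate 2 and none in either THZ1 list, where a match is a loop on the same chromosome with both anchor midpoints within 20 kb. Of 20768 loops of vehicle replicate 1, 3402 met this rule (16.4% of the list), and they matched 3373 distinct loops of vehicle replicate 2. They are called vehicle-only loops below. Loops of vehicle replicate 1 matched in all 3 other lists, 8703 in number, served as the comparison and are called kept loops. The members were thus chosen by the loop calls of all 4 libraries, so their number, sizes and strengths are given as descriptions with no test.

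The cells, MDA-MB-231, are a wild-type human TNBC line, and Hi-C followed 48 h with vehicle (DMSO) or 75 nM THZ1, an inhibitor of the transcriptional kinase CDK7. Each condition had 2 libraries, which the labels call technical replicates, so p-values measure only the spread between these samples, which may be technical. The vehicle lists held 20768 and 24219 loops and the THZ1 lists 17222 and 15066. Contacts at the called loops summed to 622305 and 762701 in the vehicle libraries and to 631600 and 551436 in the THZ1 libraries, and the read depth of each library is unknown from the files used here. The unequal lengths of the lists move with the rule, and their part in the number of vehicle-only loops was not tested. The same rule turned around, applied to the list of THZ1 replicate 1, found 789 of 17222 loops (4.58%).

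A chromatin loop is a pair of distant stretches of a chromosome, its anchors, that touch more often than their surroundings. Many loops form when cohesin extrudes DNA until CTCF, bound to motifs that point toward each other, stops it, while others join promoters and enhancers and tend to be shorter. CDK7 phosphorylates RNA polymerase II at gene starts and activates other cyclin-dependent kinases, so start sites and CTCF motifs at the anchors were the features compared here.

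The promoters of 2 of the strongest vehicle-only loops that joined start sites of different genes are shown first, since these loops place named genes at both ends. TEP1, a telomerase-associated protein, was joined to an anchor with the start sites of ANG, the secreted ribonuclease angiogenin, RNASE4, another secreted ribonuclease, and 1 gene without a symbol. E2F3, a cell cycle transcription factor, was joined to SOX4, a developmental transcription factor. Each run is the 250 bases before the start site, read from GRCh37 on the strand of the gene. Capitals mark the GC box (GGGCGG) and the CCAAT box (CCAAT), searched on both strands.
TEP1, chr14:20881661-20881910, minus strand: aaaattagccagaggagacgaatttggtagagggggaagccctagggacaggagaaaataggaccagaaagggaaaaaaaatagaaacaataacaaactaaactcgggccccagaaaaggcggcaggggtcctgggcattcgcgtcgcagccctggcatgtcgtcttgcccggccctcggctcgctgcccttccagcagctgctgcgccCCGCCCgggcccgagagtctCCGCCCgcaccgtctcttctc
ANG, chr14:21152086-21152335, plus strand: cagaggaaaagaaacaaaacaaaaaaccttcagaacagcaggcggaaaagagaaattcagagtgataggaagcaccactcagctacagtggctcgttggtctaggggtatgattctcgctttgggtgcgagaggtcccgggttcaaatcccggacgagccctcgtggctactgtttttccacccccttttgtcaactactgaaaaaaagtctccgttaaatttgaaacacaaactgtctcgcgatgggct
E2F3, chr6:20401860-20402109, plus strand: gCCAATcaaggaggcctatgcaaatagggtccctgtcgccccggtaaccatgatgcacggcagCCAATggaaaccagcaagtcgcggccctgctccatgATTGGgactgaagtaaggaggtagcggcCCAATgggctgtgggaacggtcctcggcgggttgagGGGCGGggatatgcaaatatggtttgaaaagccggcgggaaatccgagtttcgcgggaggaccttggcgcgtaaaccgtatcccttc
SOX4, chr6:21593732-21593981, plus strand: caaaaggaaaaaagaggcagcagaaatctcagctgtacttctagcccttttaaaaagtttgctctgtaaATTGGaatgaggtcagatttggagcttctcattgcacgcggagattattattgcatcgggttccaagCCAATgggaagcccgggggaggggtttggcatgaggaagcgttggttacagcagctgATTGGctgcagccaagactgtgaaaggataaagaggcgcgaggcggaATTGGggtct

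GC boxes stood in 62.5% of the 2310 protein-coding promoters at anchors of vehicle-only loops, in 60.7% of those at anchors of kept loops and in 48.8% of all 20098. CCAAT boxes stood in 37.2%, 36.5% and 33.1%. A TATA box (TATAAA) was found in 5.15% of the promoters at vehicle-only anchors, in 7.26% of those at kept anchors and in 10.1% of all promoters. The other motifs searched, given for vehicle-only, kept and all promoters in turn, were the AP-1 site (TGANTCA), in 4.42%, 4.27% and 5.45%, the TEAD site (GGAATG), in 9.65%, 10.1% and 11.03%, the ETS site (CCGGAAG), in 12.7%, 12.4% and 8.94%, and the YY1 site (AAGATGG), in 2.90%, 3.10% and 3.43%. The kept share of the TATA box lay outside the 95% Wilson interval of the vehicle-only share (4.32% to 6.13%), and the kept shares of the AP-1, TEAD, ETS and YY1 sites lay inside theirs. The sets overlap, since 817 promoters stood at anchors of both. Without these the kept shares were 59.5% for the GC box, 35.4% for the CCAAT box and 7.82% for the TATA box. That of the GC box then lay outside the vehicle-only interval (60.5% to 64.4%), and that of the CCAAT box inside its own (35.3% to 39.2%). The median GC content was 62.8% at both vehicle-only and kept anchors and 59.6% over all promoters, so the promoters of both sets of loops differed from all promoters in the same direction. The 4 promoters above carry 2, 0, 1 and 0 GC boxes in the order printed, and that of RNASE4, which overlaps an exon and is not printed, carries 2.

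Vehicle-only loops were short. Their median size, taken from the start of the left anchor to the start of the right one, was 85 kb, against 170 kb for kept loops and 140 kb for the whole list of vehicle replicate 1. Loops of 90 kb or less made up 54.6% of vehicle-only loops (1859 of 3402) and 29.6% of kept loops. The share of loops that were vehicle-only fell from 27.5% of loops up to 50 kb to 6.36% of loops over 1000 kb, with each class below the one before it, as the plot by size class shows. The members had a range of 35 to 49170 kb, and 35 of them were over 1000 kb. The median size was 80 kb when members were read from the list of vehicle replicate 2.

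**Figure D1:**
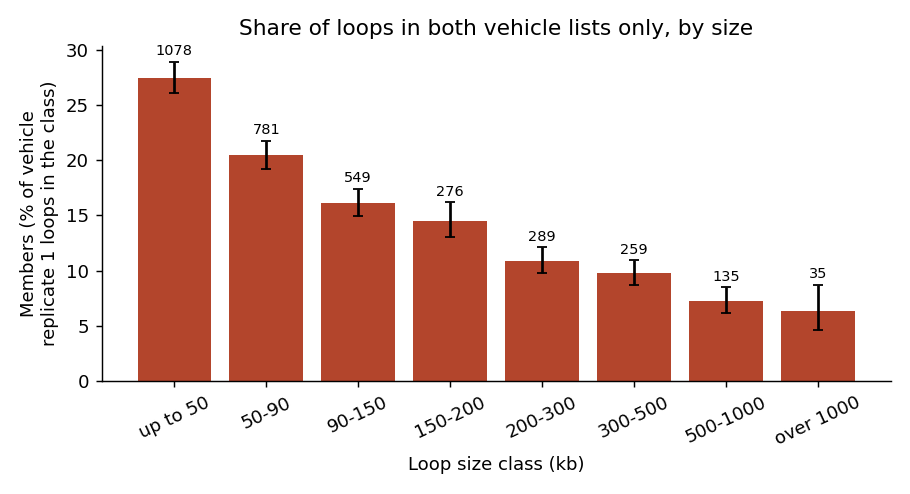
Share of vehicle replicate 1 loops that were vehicle-only in each size class (x axis, kb; y axis, % of the loops in the class), with 95% Wilson intervals for counting error and the number of vehicle-only loops above each bar. The bars fall from 27.5% for loops up to 50 kb to 6.36% for loops over 1000 kb.

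The other loops of vehicle replicate 1 fell into classes of their own. Of those also called in vehicle replicate 2, 2154 were matched in THZ1 replicate 1 alone and 1243 in THZ1 replicate 2 alone, while 3639 were matched in no other list and 1627 in a THZ1 list but not in vehicle replicate 2. The limit of 20 kb left 273 vehicle-only loops with a THZ1 loop at 22.5 to 25 kb, of median size 105 kb and median strength 1.82 on the log2 scale. The 502 loops just inside the limit, matched at over 15 and up to 20 kb, had a median size of 100 kb and a median strength of 1.99. A THZ1 loop lay within 50 kb of 39.1% of vehicle-only loops, and none lay within 100 kb of 26.7%. Leaving out a library loosened the rule, and the number rose to 9346 without vehicle replicate 1, 7041 without vehicle replicate 2, 5556 without THZ1 replicate 1 and 4645 without THZ1 replicate 2.

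Vehicle-only loops were weaker than kept loops at baseline. Strength is given as log2 of the observed contacts over the contacts expected from the donut-shaped neighborhood of the loop. Kept loops were weighted to the same mix of size class and anchor width as the vehicle-only loops, here called standardised. In vehicle replicate 1 the median strength of vehicle-only loops was 1.92 and that of standardised kept loops 2.25, a difference of -0.33. In vehicle replicate 2 the medians were 1.94 and 2.40, a difference of -0.46. The mean difference was -0.39 ± 0.09 (SD, n = 2 libraries), and the difference was negative in both. The loop calls of both libraries entered the rule, so the same sign in both is no independent support. Kept loops were chosen for a match in both THZ1 lists and vehicle-only loops for none. This gap in strength may thus follow in part from the rule, and how far it does was not tested. Of 3402 vehicle-only loops, 2522 (74.1%) lay below the standardised median of kept loops in vehicle replicate 1 and 2718 (79.9%) in vehicle replicate 2. The distributions overlapped widely, as the histograms of strength show. A limit of 50 kb for a match brought the difference in vehicle replicate 1 to -0.17, and standardising by size class alone brought it to -0.51.

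**Figure D2:**
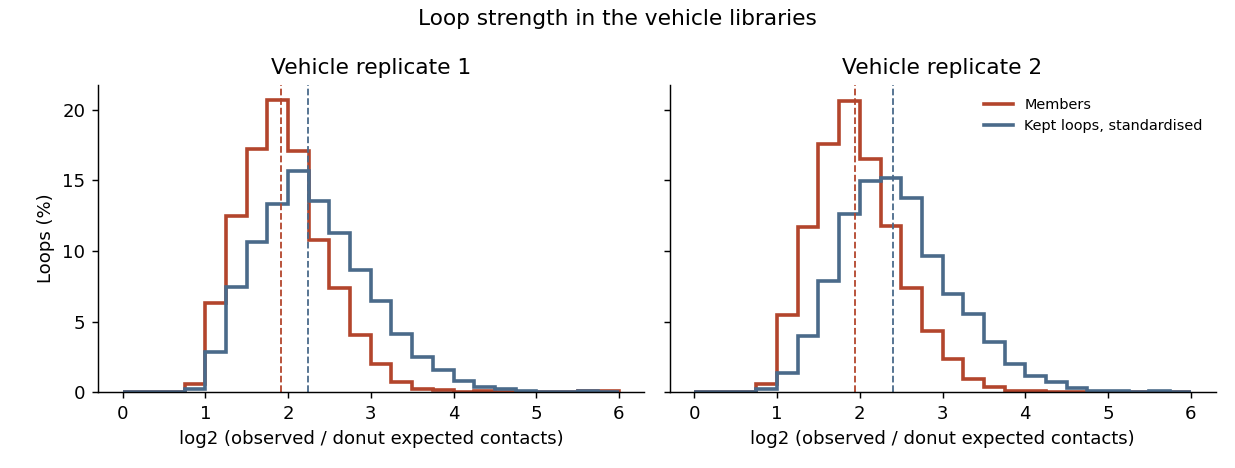
Distribution of loop strength in each vehicle library (x axis, log2 of observed over donut expected contacts, of which the range 0 to 6 is drawn; y axis, % of loops in bins of 0.25), for vehicle-only loops and standardised kept loops. Dashed lines mark the medians, 1.92 against 2.25 in vehicle replicate 1 and 1.94 against 2.40 in vehicle replicate 2.

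The observed contacts of vehicle-only loops had a median of 24 in vehicle replicate 1 (5th to 95th percentile 15 to 58.95) and 26 in vehicle replicate 2, against 32 and 33 for standardised kept loops. The donut expected contacts had medians of 6.26 and 6.65, against 6.68 and 6.44. The observed contacts were fewer in both libraries, and the expectation was lower in vehicle replicate 1 and higher in vehicle replicate 2. A single significant pixel formed 52.4% of vehicle-only loops and 28.3% of standardised kept loops. The median donut FDR of vehicle-only loops was 5.32e-05, within a range that reached 0.0935. Across loops, strengths in both vehicle libraries had a Pearson correlation of 0.54 over 3402 vehicle-only loops and 0.74 over 8703 kept loops, where loops of 1 library share its depth and are not independent replicates. GC content of the anchors did not separate the sets, with medians of 45.4% and 45.3%.

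Start sites of protein-coding genes were more frequent at the anchors of vehicle-only loops than at those of kept loops of like size. A start site lay within at least 1 anchor of 1647 of 3402 vehicle-only loops, 48.4% (95% Wilson interval 46.7% to 50.1%, counting error only), and of 42.3% of standardised kept loops, a difference of 6.14 percentage points. Both anchors held start sites in 476 vehicle-only loops, 13.99% against 11.1%. The difference was not the same at all sizes. Among loops up to 50 kb, 43.8% of vehicle-only and 47.2% of kept loops held a start site, while in the class of 200 to 300 kb the shares were 55.4% and 33.0% and in that of 500 to 1000 kb 54.8% and 29.4%. In kept loops the share was lower in each class than in the one before it up to 1000 kb and was 31.4% over 1000 kb, and in vehicle-only loops it had no such order. These shares by class were not standardised to anchor width, and anchors of 25 kb formed 10.2% of vehicle-only and 7.57% of kept loops. Standardised to size class alone, the difference in all sizes together was 7.10 points, in place of 6.14. From 6.14 points the difference fell to 3.74 when start sites of all annotated genes were counted. In windows of fixed width, 5 kb to each side of the midpoint, it fell to 3.50 points. With kept loops also standardised to strength it was 3.52 points, so part of it moved with strength.

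**Figure D3:**
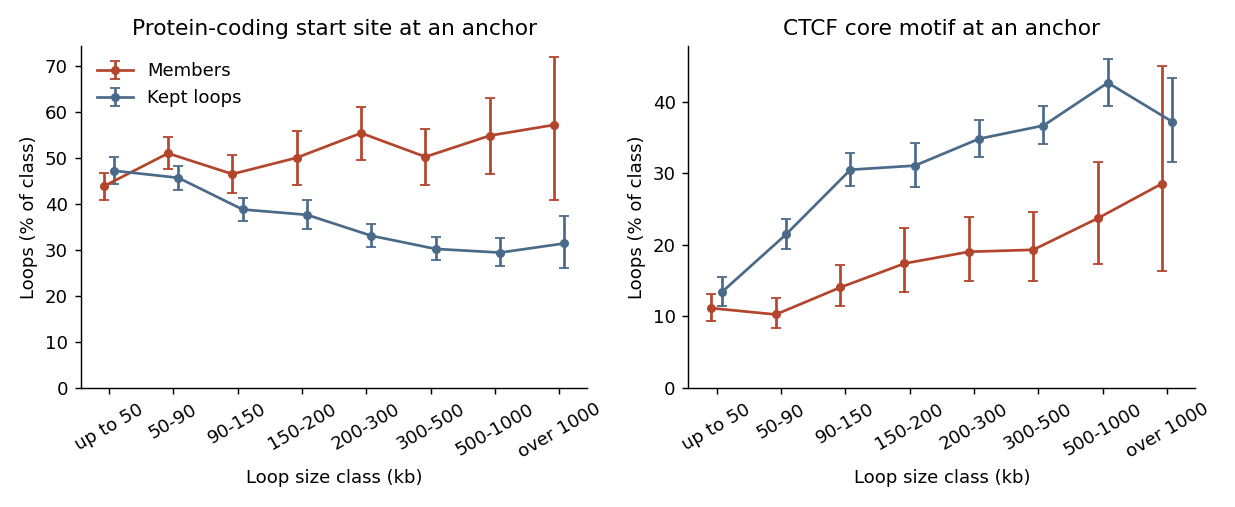
Share of loops with a protein-coding start site at an anchor (left) and with a CTCF core motif at an anchor (right) by size class (x axis, kb; y axis, % of the class), for vehicle-only and kept loops with 95% Wilson intervals for counting error. Shares within a class are not standardised to anchor width. In the class of 200 to 300 kb the start-site shares are 55.4% and 33.0%, and the motif shares 19.0% and 34.9%.

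CTCF motifs were rarer at vehicle-only anchors. The 12-letter core of the CTCF motif was found at an anchor of 472 vehicle-only loops, 13.9% (12.8% to 15.1%), and of 26.6% of standardised kept loops. Cores in the convergent arrangement, on the plus strand in the left anchor and the minus strand in the right anchor, stood in 15 vehicle-only loops, 0.441% (0.267% to 0.726%), against 2.71% of standardised kept loops. A core that pointed into the loop was present in 10.6% against 23.5%, and one that pointed out of it in 4.06% against 4.44%, so the gap lay in the inward orientation. Among anchors of 5 kb, 5.54% held a core in vehicle-only loops, 14.3% in kept loops and 1.88% of all 5 kb bins of GRCh37. By size class, not standardised to anchor width, the gap in loops with a core at an anchor was smallest up to 50 kb, with 11.1% against 13.4%. With kept loops also standardised to strength the difference in convergent loops was -1.45 points, in place of -2.27. A core match is a match of letters and no measured binding site.

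For 3 of the 15 vehicle-only loops with convergent cores, chosen after their values were seen, the cores of both anchors are shown as exceptions to this pattern. The first joins the start site of PIK3CD, a catalytic subunit of phosphoinositide 3-kinase, to an intron of CTNNBIP1, an inhibitor of beta-catenin, over 240 kb. It had 15 observed contacts over 0.957 expected in vehicle replicate 1 and 16 over 1.11 in vehicle replicate 2. The second starts in an intron of SLC2A13, a myo-inositol transporter, and the third ends in an intron of CMIP. Each run holds 30 bases of GRCh37, read on the strand named, with the core in capitals.
Left anchor at PIK3CD, chr1:9687236-9687265, plus strand: caggcatcaCCACCAGGTGGCgccgcgcgc
Right anchor in CTNNBIP1, chr1:9927702-9927731, minus strand: acctcctgcCCACTAGGTGGCgctgtctct
Left anchor in SLC2A13, chr12:40405130-40405159, plus strand: gctaaatgcCCACTAGGGGGCaaaattcct
Right anchor beyond SLC2A13, chr12:40501506-40501535, minus strand: attggctcaCCACCAGGGGGCgcagtttta
Left anchor before CMIP, chr16:81437299-81437328, plus strand: taaaagcgtCCAGCAGAGGGCgccccaaac
Right anchor in CMIP, chr16:81481358-81481387, minus strand: ccctggagcCCACCAGAGGGCaagggtaag

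The strongest vehicle-only loops reached strengths well above the median. Among the 2079 with 20 or more observed contacts in both vehicle libraries, the first joined an intron of RPAP2, a phosphatase of RNA polymerase II, to an exon of EVI5, a regulator of Rab GTPases, over 310 kb (chr1:92775001-93090000). It had 39 contacts over 2.89 expected in vehicle replicate 1 and 53 over 3.19 in vehicle replicate 2, log2 strengths of 3.75 and 4.05. The next reached the start site of EFNA5, an ephrin ligand, over 385 kb, with 33 and 34 contacts and log2 strengths of 3.38 and 3.48. The loop from PTK6, a non-receptor tyrosine kinase, to TPD52L2, a member of the tumor protein D52 family, followed, with 24 and 31 contacts over 2.30 and 3.0 expected across 330 kb (chr20:62165001-62500000). A loop of 415 kb between the start sites of RRM2B, a subunit of ribonucleotide reductase induced by p53, and KLF10, a transcription factor induced by TGF-beta, had 26 and 27 contacts. The remaining 6 of the first 10 lay between 3.18 and 3.26 in mean log2 strength, at HHAT and KCNH1, RNF212, C18orf25, ANGEL1, ZNF700 with ZNF20, and a pair of anchors on chromosome 6 without a protein-coding gene. All 10 had anchors of 5 kb and only 1 of them, at RNF212, was under 90 kb.

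Among loops between start sites of different genes, the loop from TEP1 to ANG and RNASE4 was the strongest, with 18 contacts over 1.38 expected and 20 over 1.68 across 270 kb (chr14:20880001-21155000). The log2 strengths were 3.704 and 3.57. The loop from PIGN and RELCH to PHLPP1, a phosphatase that acts on AKT, spanned 530 kb with 16 and 19 contacts, and its strength differed between libraries, 4.18 and 2.98. E2F3 and SOX4 were joined over 1190 kb with 18 and 15 contacts and strengths of 3.29 and 3.22 (chr6:20400001-21600000). STK26, a serine/threonine kinase, and RAP2C, a small GTPase, were joined over 200 kb with 17 and 13 contacts. ZNF700 and ZNF20, both zinc finger genes of chromosome 19, were joined over 215 kb with 37 and 29 contacts, the most observed contacts in vehicle replicate 1 among these 10. The list ended with COX11 and STXBP4 to MMD, IFT140 and CRAMP1 to NME3, and GDF11, a TGF-beta family ligand, to SMARCC2, a subunit of the SWI/SNF remodeling complex, with 14 to 19 contacts in each library.

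Among the largest members, a pair on chromosome 1, of 24675 and 24525 kb, shared the left anchor and ended at PDE4DIP. The loop of 11875 kb on chromosome 19 that ended at ATP4A had an expected count of 0.0214 and 0.00987, which gave the highest log2 strengths of all members, 9.25 and 10.66. In all, 4 vehicle-only and 22 kept loops were over 10 Mb.

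Within genes, both anchor midpoints of 603 vehicle-only loops (17.7%) lay in 1 protein-coding gene, against 15.5% of standardised kept loops, a difference of 2.23 points that was 1.31 points without THZ1 replicate 2. Loops with no protein-coding gene at either midpoint and no start site of one at an anchor were also more frequent among vehicle-only loops, 619 (18.2%, Wilson interval 16.9% to 19.5%) against 16.1% of standardised kept loops, a difference of 2.05 points. This difference was 3.19 points with a match limit of 50 kb, 0.839 without vehicle replicate 2, 0.990 without THZ1 replicate 1 and 1.13 without THZ1 replicate 2. RUNX1, a transcription factor of the Runt family, held the most, 8 vehicle-only loops of 35 to 420 kb. The start positions of 3 of them coincided at base 36260001 of chromosome 21, with second anchors that ended at 36360000, 36510000 and 36690000. Their contacts were 16, 14 and 21 in vehicle replicate 1 and 18, 30 and 24 in vehicle replicate 2. RUNX1 also held 11 kept loops, and in all 24 and 29 loops of the vehicle lists and 15 and 14 of the THZ1 lists. Genes here were named for their vehicle-only loops, so lower THZ1 counts follow in part from the rule, and the THZ1 lists were shorter. Among the next genes, DST (a cytoskeletal linker), HIVEP3 (a zinc finger protein), KCNMA1 (a potassium channel) and ZMIZ1 (a transcriptional coregulator) held 4 each. ZMIZ1 had 6 and 6 loops in the vehicle lists and 2 and 0 in the THZ1 lists. ALDH1A2, an enzyme of retinoic acid synthesis, chosen after its values were seen, held 3 loops in vehicle replicate 1, all vehicle-only, 4 in vehicle replicate 2 and 0 in both THZ1 lists. Genes with a vehicle-only loop inside had a median length of 188 kb and those with a kept loop inside 194 kb. The median of all genes was 27.3 kb, below the smallest vehicle-only loop (35 kb), so a gene that holds such a loop is long by construction.

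A gene whose 2 ends were joined, with its start in 1 anchor and its end in the other, was found in 41 vehicle-only loops, 1.21% (0.890% to 1.63%), against 0.947% of standardised kept loops. The strongest of these, named after their values were seen, were at NSD3, a histone methyltransferase, with 32 and 37 contacts across 110 kb, and at TERF2IP, a telomere protein, with 18 and 21. KMT2D, another histone methyltransferase, had 22 contacts over 4.45 expected and 26 over 6.40 across 40 kb.

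In all, 2310 protein-coding genes, 11.5% of 20098, had a start site at a vehicle-only anchor. Of these, 817 (35.4%) also had one at a kept anchor, and 775 (33.6%) were at no anchor of either THZ1 list. A start site counts here, and for the genes below, only inside a called anchor, while loops were matched within 20 kb. A gene at a kept anchor can therefore miss both THZ1 lists, as 202 of 3514 (5.75%) did. Of the genes at kept anchors, 81.1% were at an anchor of both THZ1 lists, against 41.3% of genes at vehicle-only anchors. Kept loops were chosen for a match in both THZ1 lists and vehicle-only loops for none, so this gap follows in part from the rule. The same holds for lower THZ1 counts at genes named for their vehicle-only loops. EGFR, the receptor of epidermal growth factor, had 4 vehicle-only loops at its start site. They were 85, 35, 110 and 235 kb long, with 33, 38, 28 and 33 contacts in vehicle replicate 1 and 41, 61, 40 and 24 in vehicle replicate 2. Their log2 strengths were 1.29 to 3.40 and 1.70 to 2.46. EGFR also had 2 kept loops, and its start site was an anchor of 6 loops in each vehicle list and of 2 in each THZ1 list. PTK6, which had 4 vehicle-only loops and no kept loop, was at the anchor of 6 loops in each vehicle list and of 2 and 1 in the THZ1 lists.

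Of 197 genes in 10 lists that bear on this line and drug, 34 had a start site at a vehicle-only anchor (17.3%, against 11.5% of all protein-coding genes). Of the 114 that had a start site at any anchor of vehicle replicate 1, this is 29.8%, close to the 30.1% of all 7671 such genes. A kept loop was also present at 18 of the 34 (52.9%, against 35.4% of all genes at vehicle-only anchors). The start sites of 9 of them (26.5%, against 33.6%) lay in no anchor of either THZ1 list, namely LATS1, INCENP, PRC1, BATF3, MAFG, ERBB3, XBP1, MYL9 and TGFBR2, of which TGFBR2 also had 1 kept loop, matched within 20 kb in both THZ1 lists. The YAP and TEAD pathway, which controls growth genes through TEAD transcription factors, had 6 of 19 genes (31.6%), or 6 of the 11 at any anchor of vehicle replicate 1. YAP1, the coactivator, was joined to BIRC3, an inhibitor of apoptosis, over 205 kb with 24 and 27 contacts over 5.42 and 5.97 expected, and its start site was an anchor of 6 and 7 loops in the vehicle lists and of 5 and 3 in the THZ1 lists. LATS1, the kinase that inhibits YAP1, was joined to GINM1 with 30 and 27 contacts, the 1 loop at its start site in each vehicle list. AJUBA was joined to PRMT5 with 33 and 48 contacts, and had 2 and 4 loops in the vehicle lists and 1 and 3 in the THZ1 lists. TEAD1, TEAD2 and ANKRD1 had 1 vehicle-only loop each, with 3 and 2 loops in the THZ1 lists at TEAD1 and 1 and 0 at both TEAD2 and ANKRD1. Lists of 19 genes are small, and no test was made on them.

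The shares of the other lists are of all their genes and, after the comma, of those at any anchor of vehicle replicate 1, to be read against 11.5% and 30.1% of all genes. The mesenchymal and invasion genes had 6 of 30 (20.0%), 6 of 17 (35.3%), with CD44, CAV1, FN1, SNAI1 and TGFBR2 beside EGFR. FN1, which encodes fibronectin, had 26 and 15 contacts in a loop of 90 kb, and 0 and 2 loops in the THZ1 lists. Condensin, the complex that compacts mitotic chromosomes, had 2 of 8 genes (25%), 2 of 3 (66.7%), NCAPD2 and NCAPG. The NCAPG loop reached the start site of LAP3 over 235 kb with 24 and 25 contacts, and 3 kept loops shared the NCAPG start site, which had 4 loops in each vehicle list and 5 and 3 in the THZ1 lists. The NCAPD2 loop had 16 and 13 contacts. The NCAPD2 start site also had 1 kept loop, with 3 and 1 loops in the vehicle lists and 1 in each THZ1 list. Cohesin and CTCF genes had 1 of 14 (7.14%), 1 of 12 (8.33%), SMC3, with 26 and 27 contacts over 155 kb. SMC3 also had 1 kept loop, and its start site lay in an anchor of 1 loop of THZ1 replicate 1 and of 0 of THZ1 replicate 2. The CDK7 complex and transcriptional kinases had 4 of 21 (19.0%), 4 of 12 (33.3%), GTF2H1, CDK13, CDK19 and POLR2A. POLR2A, the largest subunit of RNA polymerase II, had 2 vehicle-only and 3 kept loops at its start site, with 6 and 7 loops in the vehicle lists and 2 and 3 in the THZ1 lists. CDK13 had 1 loop in each of the 4 lists.

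Mitotic regulators had 3 of 26 genes (11.5%), 3 of 16 (18.8%). INCENP, a subunit of the chromosomal passenger complex, was joined to FTH1, the ferritin heavy chain, with 20 and 15 contacts. PRC1, which bundles the spindle midzone, was joined to RCCD1 with 21 and 23 contacts. The other, KIF18A, had 4 and 5 loops in the vehicle lists and 3 and 2 in the THZ1 lists. NF-kB targets and cytokines had 4 of 20 (20.0%), 4 of 10 (40%), and actin and focal adhesion genes 4 of 24 (16.7%), 4 of 16 (25%). AP-1 genes had 2 of 13 (15.4%), 2 of 9 (22.2%), and luminal breast genes 2 of 22 (9.09%), 2 of 8 (25%). The luminal genes were ERBB3, a receptor tyrosine kinase with 2 vehicle-only loops, and XBP1, a factor of the unfolded protein response that was joined to CHEK2 and HSCB with 25 and 33 contacts. Neither had a kept loop. For comparison, kept loops reached 13.6% (luminal breast) to 43.3% (mesenchymal and invasion) of the genes of the 10 lists, and 17.5% of all genes.

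A vehicle-only loop lay near another vehicle-only loop more often than a kept loop did. Another vehicle-only loop had its midpoint within 100 kb of 1600 vehicle-only loops, 47.0% (45.4% to 48.7%), and of 40.2% of standardised kept loops, a difference of 6.83 points. It was 13.5 points with a match limit of 50 kb, 3.77 without vehicle replicate 2, 3.91 without THZ1 replicate 1 and 2.89 with kept loops also standardised to strength. Of 3053 bins of 1 Mb, 1445 held a vehicle-only loop and 154 held 5 or more. These 154 bins, chosen for their vehicle-only loops, held 936 of them (27.5%) and 12.9% of kept loops. The bins with the most were on chromosome 11, with 12 of 29 loops between 12 and 13 Mb, where the only start site at a vehicle-only anchor was that of TEAD1, and 12 of 30 between 130 and 131 Mb, where it was that of ZBTB44. On chromosome 6, 11 of 42 loops between 36 and 37 Mb were vehicle-only, with a median size of 40 kb and start sites of 8 genes, among them MAPK13, a p38 kinase. Another 10 lay between 4 and 5 Mb, with ECI2 and PRPF4B, and 10 between 43 and 44 Mb, with VEGFA, the angiogenic growth factor, and SRF, the serum response factor. Across chromosomes the vehicle-only share of loops ranged from 13.3% on chromosome 4 to 19.7% on chromosome X, with 19.6% on chromosome 19.

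Most anchors of vehicle-only loops were still near an anchor of some THZ1 loop. At least 1 anchor midpoint of 3169 vehicle-only loops, 93.2% (92.3% to 94.0%), lay within 20 kb of an anchor midpoint in either THZ1 list, and both did in 54.4%. Such anchors reach 30.7% of the 5 kb bins of the genome. This is a share of single positions, to be read against the shares of single anchors that follow and not against the 93.2% of loops. Anchors with a start site were near a THZ1 anchor in 78.8% of cases and those without in 71.5%. An anchor overlapped that of a kept loop in 58.6% of vehicle-only loops and that of another vehicle-only loop in 41.1%. Other loops from the same side had a median size of 175 and 177.5 kb in the vehicle lists and 210 kb in both THZ1 lists. The rule leaves no THZ1 loop that matches a vehicle-only loop, and vehicle-only loops were short. This gap may thus follow in part from the rule, and the same sizes were not taken for kept loops. A larger kept loop enclosed 65.8% of vehicle-only loops and 65.9% of standardised kept loops.

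Loops called at identical anchors in all 4 lists allowed a test of strength, since no vehicle-only loop is among them and the rule did not use their counts, although they come from the same 4 libraries. Of 2619 such loops, edgeR's quasi-likelihood test with the donut expectation as offset called 720 weaker with THZ1 at a Benjamini-Hochberg adjusted p under 0.05 (27.5%) and 1 stronger (0.0382%). Of the 875 that shared an anchor with a vehicle-only loop, 279 were weaker (31.9%) and 1 was stronger. Of the 1744 that did not, 441 were weaker (25.3%), or 26.1% after standardising to the sizes of the former. The median log2 change was -0.46 for loops at vehicle-only anchors, -0.39 for the others and -0.41 over all. The difference between both sets was not tested.

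These calls rest on 2 libraries per condition and on the tool. At vehicle-only anchors DESeq2 with the donut expectation called 0 loops weaker, with 150 at an unadjusted p under 0.05 against 435 by edgeR. Leaving out a library leaves 1 in its group, so the spread then comes from the other group alone. For those fits only the size of the change is given. The median log2 difference at vehicle-only anchors was -0.48 to -0.45 when a library was left out and -0.47 by DESeq2 with the donut expectation, close to the -0.46 with all libraries by edgeR. Without the expectation, after TMM normalization of the observed contacts, 65 were weaker and 8 stronger at vehicle-only anchors, 44 and 59 among the others, and 109 and 67 over all. TMM centres the loops by construction, so its medians, -0.11 at vehicle-only anchors and 0.05 at the others, are relative to a common level, and the cause of the fall common to all loops was not tested.

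**Figure D4:**
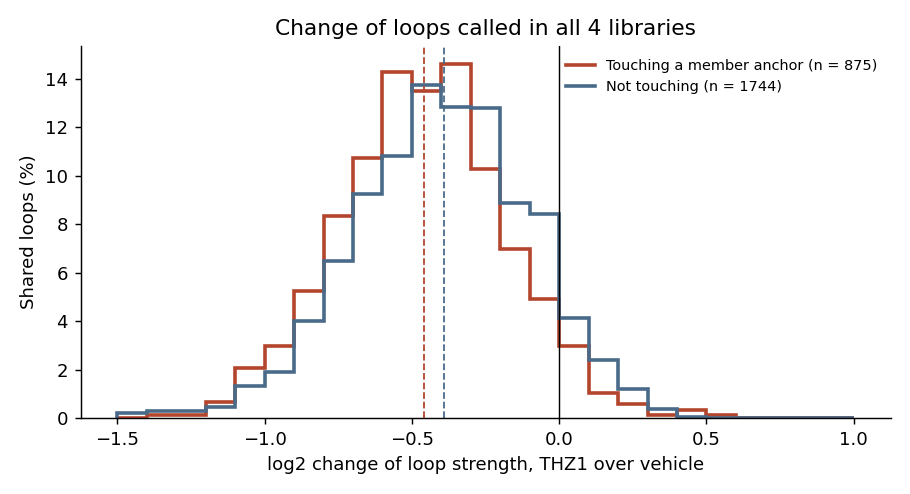
Change of strength of loops called at identical anchors in all 4 lists (x axis, log2 change with THZ1 over vehicle from edgeR, with the donut expectation as offset; y axis, % of loops in bins of 0.1), for the 875 loops at a vehicle-only anchor and the 1744 others. Dashed lines mark the medians, -0.46 and -0.39, and both sets lie mostly below 0.

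Of the loops at vehicle-only anchors that were called weaker, the one with the largest change lay at ELAPOR2 on chromosome 7. It had 27 and 31 contacts with vehicle and 24 and 20 with THZ1, over 1.12, 0.885, 2.02 and 1.76 expected, a log2 change of -1.31 (SE 0.25, edgeR adjusted p = 0.0032). The loop from KHDC4, an RNA-binding protein, to UBQLN4 and LAMTOR2 had 51 and 56 contacts with vehicle and 29 and 28 with THZ1, a log2 change of -1.18 (SE 0.21, edgeR adjusted p = 0.0019). It shared its left anchor with a vehicle-only loop of 195 kb (chr1:155900001-156100000). The loop between TWF2, an actin-binding protein, and WDR82, a subunit of histone methyltransferase complexes, had 69 and 67 against 44 and 35 contacts. The loop within RFLNA had 67 and 75 against 34 and 35, and the loop at the start site of MFSD14A 54 and 56 against 42 and 28, so in each of these the observed contacts of both THZ1 libraries lay below both vehicle libraries. The single stronger loop, at POP4, a subunit of RNase P, rose from 28 and 33 to 60 and 50 contacts, a log2 change of 0.57 (SE 0.20, edgeR adjusted p = 0.046).

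Contact domains, called from the same libraries but not used by the rule, enclosed vehicle-only loops in all 4 libraries. Both anchor midpoints lay inside a domain for 25.8% and 28.9% of vehicle-only loops in the vehicle lists and for 37.2% and 36.4% in the THZ1 lists. The THZ1 libraries were both higher than both vehicle libraries, 36.8% ± 0.54 against 27.3% ± 2.18 (SD, n = 2 each), and an exact two-sided permutation test gave p = 0.33, the smallest that 2 against 2 libraries allow. The domain lists were longer with THZ1, 2477 and 2345 domains over 829 and 805 Mb against 1198 and 1398 over 489 and 536 Mb. Standardised kept loops went from 21.7% and 23.7% to 34.0% in both THZ1 lists, a rise of 11.3 points against 9.45 for vehicle-only loops. A vehicle-only loop coincided with a whole domain, both ends within 20 kb, in 0.617% to 0.999% of cases by library, against 2.22% to 5.32% of standardised kept loops.

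**Figure D5:**
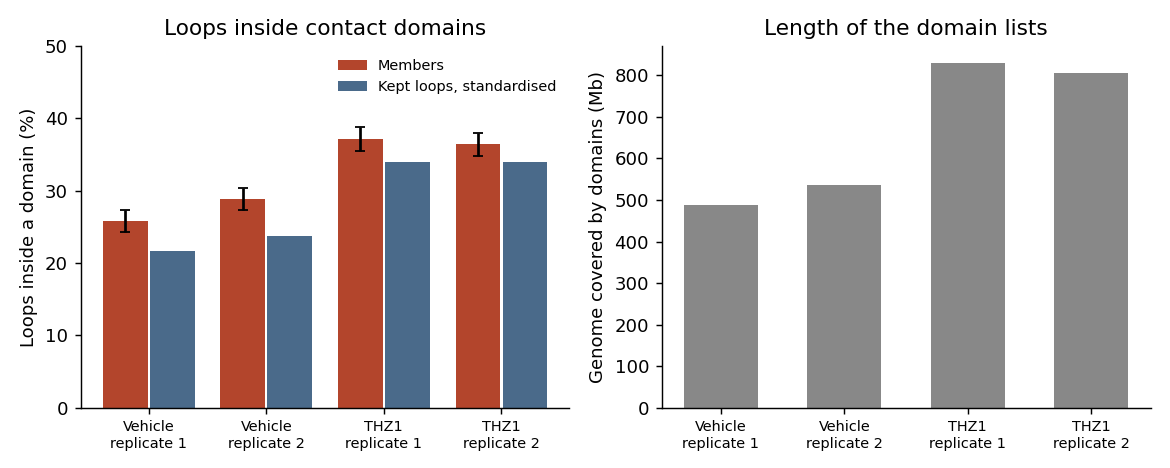
Left, share of vehicle-only loops and of standardised kept loops with both anchor midpoints inside a contact domain of each library (y axis, %), with 95% Wilson intervals for counting error on the former. Right, the length of genome under the domains of each library (y axis, Mb), which rises from 489 and 536 Mb with vehicle to 829 and 805 Mb with THZ1.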

How the data were processed

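The authors processed Hi-C reads of 4 libraries with Juicer 1.6 on hg19 (submitters' processing notes), and the file headers name juicer_tools 1.19.02. In the authors' loop lists, from HiCCUPS with anchors of 5, 10 and 25 kb, deposited observed values are contact counts at the peak pixel, the authors' expected values are a signal in units of contacts, from neighborhoods around the loop, and deposited FDR values are q-values (p-value type). The deposited domain lists, from Arrowhead, carry a corner score. The authors' tables of loops unique to a condition hold pooled comparisons and were not used. Settings and filters of both callers are not given in the sources used here.

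Lists were matched in Python 3.11.15 at 20 kb. The members and gene lists were chosen with earlier results of these data known. Kept loops were standardised over 8 size classes and 3 anchor widths. No anchor passed a chromosome end of GRCh37, the build of the genome read. Genes are GENCODE 44 protein-coding genes. For shared loops, R 4.3.3 ran edgeR 4.0.16 on 2619 of 2624, since 5 had an expected count of 0. SEs were taken from the fold change and its F statistic. Counts were also simulated on these loops from the fitted dispersion, with 200 of 2619 changed up or down at random and no common shift. In them 77.4% of changes of 2-fold and 23.4% of 1.5-fold were recovered, and 4 of 108 calls were false. The data differ from this setting, with 720 loops weaker, 1 stronger and a median log2 change of -0.41. The simulation thus gives no rate of false calls for the 720. Figures were drawn with matplotlib 3.10.9. Loops named are the 10 strongest members with 20 or more contacts in both vehicle libraries, the 10 strongest between start sites of different genes, the largest, those of the 5 fullest bins of 1 Mb, those at genes of the lists, those of the 5 genes that hold most (with ties), and up to 5 shared loops at their anchors that changed most in each direction with the same sign in all 4 pairs of libraries. Wilson intervals cover counting error only. A few items that these rules name are not reported here.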

Additional observations from a re-analysis of the deposited data

How the results depend on the processing

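Among the 93 alternatives, 52 were read as the same, 41 as moved and 0 as reversed. The same meant within 1.5 times a count, the counting error of a share or the SD between vehicle libraries. For the 6 alternatives of the domain result it meant only the same sign. Numbers of loops, median sizes and shares without a comparison cannot change sign, so these could not reverse. With a match limit of 50 kb the median size was 90 kb, the difference in convergent CTCF cores -1.74 points, that in strength -0.17, that in clustering 13.5 points and the share with an anchor near a THZ1 anchor 95.2%, and at 10 kb the last was 91.0%. From the list of vehicle replicate 2 the median size was 80 kb and the convergent difference -2.00. The convergent difference was -1.91 with anchors of 10 kb or less, -1.98 with size class alone and -3.36 in wider windows of fixed width. With size class alone, the difference in strength was -0.51 and that in clustering 4.82 points. The start-site difference was 3.74 points with all genes and 3.50 in fixed windows. An alternative chosen after the data were seen, kept loops also standardised to strength, gave 3.52 points for start sites, -1.45 for convergent cores and 2.89 for clustering. The causes were not tested.

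Leaving out 1 library gave 4645 to 9346 members, since it removes a condition of the rule, with median sizes of 90 to 110 kb. It gave differences of 5.78 to 7.15 points for start sites, 1.31 to 2.15 for both anchors in 1 gene, 0.839 to 1.604 for loops away from genes (alternatives chosen after the data were seen), -2.57 to -1.74 for convergent cores, -0.32 to -0.25 for strength and 3.77 to 7.03 for clustering, 88.8% to 92.2% with an anchor near a THZ1 anchor, and 7.91 to 10.99 points for domains. Of the shared loops at vehicle-only anchors, 0 to 96 were weaker when a library was left out, 65 with TMM and no expectation, and 0 with DESeq2 with the donut expectation or with its own size factors. With the replicate block it was 299 in place of 279. Over the shared loops, same-numbered libraries did not deviate together (r = 0.017). With few contacts per loop this cannot show whether they share a culture or preparation, which the sources used here do not state. No other result had a fit that could take the block. Few contacts per loop, a median of 24, limit the strength of single loops.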
